A study of Mus musculus with 2 samples.

Results

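The 42 genes described here encode the contractile machinery of the myoepithelial cell and its response to oxytocin, and they were taken by gene symbol from the 27179 features of a single-cell RNA-seq experiment on the mouse mammary gland. Myoepithelial cells are the basal, outer layer of the mammary ducts and alveoli. They contract like smooth muscle when oxytocin from the pituitary binds its receptor, and this squeezes milk out of the alveoli. The receptor acts through a Gq protein and inositol trisphosphate to release calcium. Calcium and calmodulin switch on myosin light chain kinase, which phosphorylates the regulatory light chain of myosin, while myosin phosphatase removes the phosphate and inhibitor proteins hold the phosphatase back.

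The study compared adult females 18.5 days pregnant of 2 genotypes, a strain labelled EhfKO, in which Ehf was deleted, and wild type (WT). Ehf is an epithelial transcription factor of the ETS family, and the study's question was its part in alveolar differentiation. Thoracic and inguinal glands of 2 females per genotype were pooled, digested with enzymes and sorted for live cells negative for Ter119, CD31 and CD45, and each pool gave 1 library made with the 10x Chromium 3' kit. The labels and design text used here name neither the deleted part of Ehf nor the cells in which it was deleted. With 1 library per genotype there is no replicate of either genotype and no test: differences below are between 2 libraries, and all intervals are 95% and cover counting error only.

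The knockout library held 7275 cell barcodes and 40066795 UMIs (counted RNA molecules), and the WT library 11258 barcodes and 48720938 UMIs. After filters, 6558 and 9052 cells remained, and 25 barcodes occurred in both libraries, 8 of them in basal cells of both. Clustering was done without the 42 genes, and 9 of 17 clusters were named basal from keratins and other basal markers outside the list. Basal cells numbered 5520 in the knockout library (84.2% of cells) and 6207 in the WT library (68.6%), with a median of 3623.5 and 2016 UMIs per cell. Luminal secretory cells numbered 828 and 2551, with a median of 10349.5 and 8897 UMIs, and hormone-sensing cells 150 and 124. Only 1 barcode of the knockout library was called a doublet, so doublet removal did not work there. Ehf itself had 79 UMIs in knockout and 163 in WT basal cells, and 1082 and 3331 in luminal secretory cells. Since 3' tags can lie outside a deleted part, these counts do not check the labels.

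The promoters of 4 of the genes are shown. Srf and Myl9 stand for the contractile programme and its regulator, Oxtr for the gene with the largest difference towards lower levels in knockout basal cells, and Ppp1r14b for the largest difference the other way. Each stretch comes from the RefSeq promoter table on GRCm38.p6, runs 5′ to 3′ on the gene's strand, and stops before any GENCODE exon of the gene and, outside its RefSeq span, before that span. The table holds 1 transcript start for each of these 4 genes. The RefSeq spans of Srf (chr17:46546838-46558267) and Oxtr (chr6:112473683-112491035) reach further upstream, so these 2 stretches lie inside the gene's span. Capitals mark CArG boxes, the element bound by serum response factor (SRF), with at most 1 inner letter other than the box allows. The stretch of Srf is chr17:46556176-46556412 (minus strand), that of Myl9 chr2:156775214-156775407 (plus strand), that of Oxtr chr6:112489944-112490075 (minus strand) and that of Ppp1r14b chr19:6974798-6974967 (plus strand).
Srf: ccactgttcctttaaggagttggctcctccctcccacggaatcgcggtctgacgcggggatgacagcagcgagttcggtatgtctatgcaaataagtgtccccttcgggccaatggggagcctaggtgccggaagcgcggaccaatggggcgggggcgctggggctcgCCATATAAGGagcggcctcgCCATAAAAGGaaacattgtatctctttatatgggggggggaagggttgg
Myl9: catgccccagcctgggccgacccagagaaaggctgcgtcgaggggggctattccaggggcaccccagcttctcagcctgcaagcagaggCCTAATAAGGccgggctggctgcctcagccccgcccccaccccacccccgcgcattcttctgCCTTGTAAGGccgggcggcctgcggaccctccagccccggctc
Oxtr: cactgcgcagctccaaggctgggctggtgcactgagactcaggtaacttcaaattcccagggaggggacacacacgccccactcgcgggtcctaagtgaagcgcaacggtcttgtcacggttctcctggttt
Ppp1r14b: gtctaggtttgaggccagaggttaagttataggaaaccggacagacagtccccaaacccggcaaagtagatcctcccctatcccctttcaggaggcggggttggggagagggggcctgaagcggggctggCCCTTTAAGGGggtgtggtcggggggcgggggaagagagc

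The search covered both strands of the 250 bases before each RefSeq start, for the 35 of 42 genes in the table. Some genes, such as Myl6, have more than 1 start there. A gene was counted if the window of any of its starts held the motif. An exact CArG box was found in 5 of these 35 (14.3%), Cnn2, Myl6, Myl9, Srf and Vcl, and in 1.62% of all 27025 genes in the table. Allowing 1 other inner letter gave 10 of 35 (28.6%) against 9.78%. Srf held 2 exact boxes, beginning 82 and 62 bases before the start, and Myl9 had 1 exact box at 161 bases and 1 with another letter at 99. Acta2 had 2 of the looser kind, at 84 and 34 bases. The 2 matches of Ppp1r14b overlap each other and read as a single stretch. Oxtr held none in these letters. The ETS-type motif CGGAAG was found in 8 of 35 (22.9%) against 15.3% of all genes, and in neither Oxtr nor Ppp1r14b.

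Most of the contractile genes were moderately lower in knockout than in WT basal cells, Oxtr was lower by more than any other member, and Ppp1r14b was several-fold higher. Clusters 0 and 1 held most WT basal cells and clusters 2 and 3 most knockout basal cells, so values over the whole class come first and values within clusters follow. Levels here are UMIs of a gene per 1000000 UMIs of the class (CPM), scaled so that the median of all genes with at least 50 UMIs had a knockout over WT ratio of 1. This scaling moved values in basal cells by 0.004 on the log2 scale. Of 41 members with at least 50 UMIs, 4 were at least 1.5-fold lower in the knockout library (Oxtr, Synm, Smtn and Myh11) and 2 at least 1.5-fold higher (Ppp1r14b and Csrp2). Over all 12214 genes so measured, 6.54% were lower and 6.03% higher by that size. The direction was more one-sided than the size: 32 of the 41 had a log2 ratio below 0, against 50% of all genes, with a median of -0.34 against 0. The interval lay below 0 for 30, above 0 for 6 and across 0 for 5, and among all genes it lay below 0 for 21.3% and above 0 for 22.3%. Members carry more UMIs than most genes, so their intervals are narrower.

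**Figure D1:**
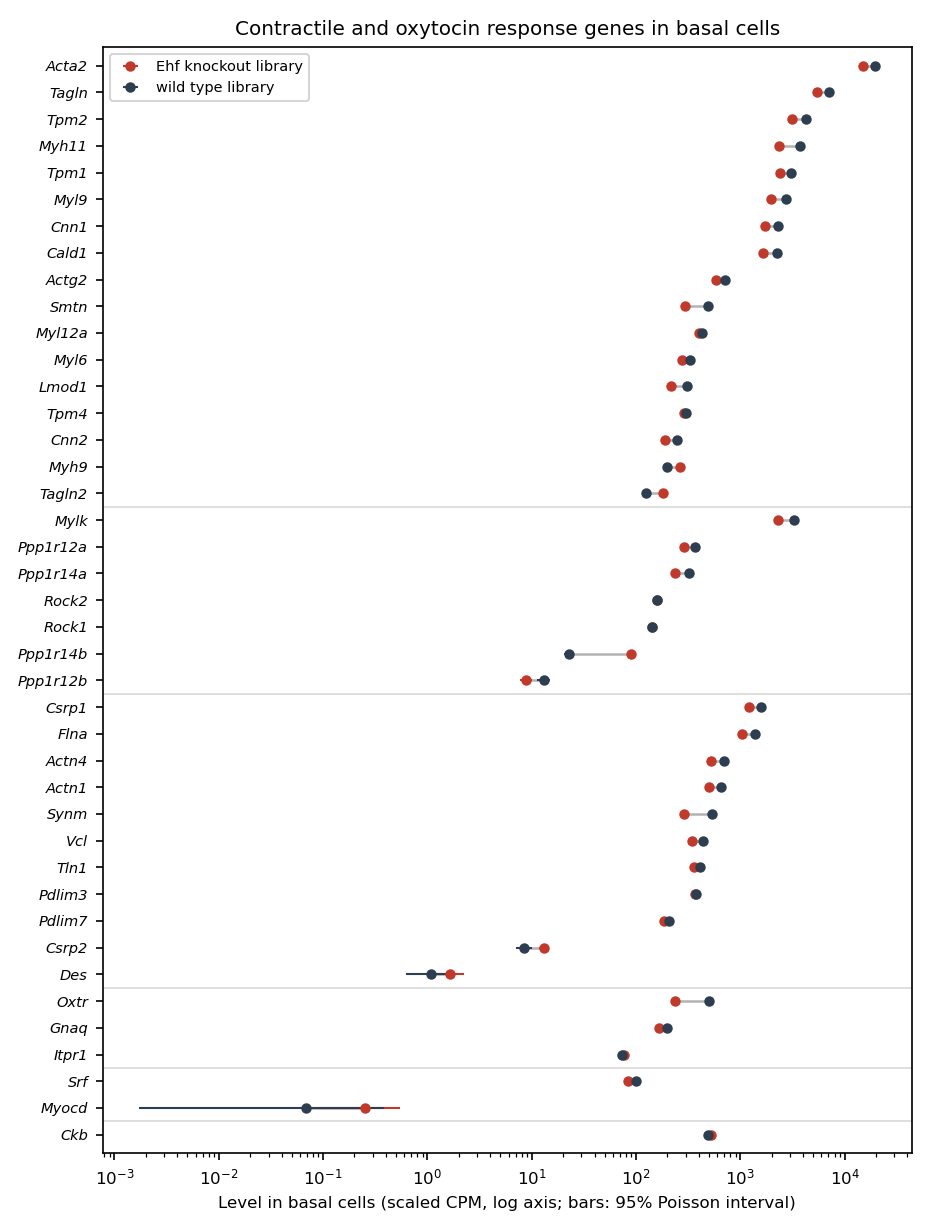
Level of 41 of the 42 genes in basal cells of the knockout (red) and WT (dark) library, in scaled CPM on a log axis, grouped by role from actin and myosin at the top to Ckb at the bottom. Bars are 95% Poisson intervals of 1 library each. Red lies left of dark for most genes, and Ppp1r14b, at 89.8 against 22.8 CPM, is the widest gap the other way.

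Together the 42 genes made up 4.57% of all basal UMIs in the knockout library and 6.03% in the WT library. Acta2 alone gave 33.0% and 32.5% of these UMIs. Within single basal cells thinned to 2000 UMIs, the members' share had a median of 4.25% in the knockout (quartiles 3.1% and 5.85%, 5308 cells) and 6.35% in the WT library (quartiles 4.8% and 7.8%, 3163 cells). The upper quartile of these knockout cells was thus below the median of these WT cells. Thinning left out 212 knockout and 3044 WT basal cells that were shallower, so the WT values describe its deeper cells. Cluster 0 had a median of 1787 UMIs per cell and cluster 1 had 2689.5. In the WT library members took 5.44% of UMIs in cluster 0 and 7.57% in cluster 1. The part of this selection in the thinned values was not tested. In luminal secretory cells the median share was 0.3% and 0.1%.

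Among actin, myosin and thin filament genes, 2 of 17 were at least 1.5-fold lower in the knockout library, none was higher, and 2 had a ratio above 0. Acta2, the smooth muscle actin that defines myoepithelial cells, was at 15112 CPM in the knockout and 19569.5 CPM in the WT library, a log2 ratio of -0.37 (-0.38 to -0.37). Actg2, the second smooth muscle actin, was at 588 and 712 CPM (log2 ratio -0.28). Myh11, the smooth muscle myosin heavy chain (chr16:14194527-14292188), was at 2355 and 3774 CPM, a log2 ratio of -0.68 (-0.70 to -0.66). Its companion Myl9, the regulatory light chain that the kinase phosphorylates, was at 1987 and 2725 CPM (-0.46).
Of the thin filament genes, Tagln, Cnn1 and Lmod1 lay in the same range. Tagln (transgelin) was at 5393 and 7059.5 CPM (-0.39), and Cnn1 (calponin), which restrains the myosin ATPase, at 1711 and 2313 CPM (-0.44). Lmod1, which nucleates actin filaments, was at 217 and 306 CPM (-0.50). Smtn (smoothelin, chr11:3517522-3539292), an actin-binding protein of contractile smooth muscle, stood lower than these, at 295 and 490 CPM (-0.73, -0.78 to -0.68). The 2 members above 0 were non-muscle relatives: Myh9, the non-muscle myosin heavy chain, at 263 and 196 CPM (0.42), and Tagln2, at 181 and 126 CPM (0.52). Tpm4 and Myl12a, also widely expressed outside muscle, had ratios of -0.05 and -0.12, while the muscle-type Tpm2 had -0.44. Such a split did not hold for all members of the group. Cnn2 had -0.36 and Myl6 -0.24, beside -0.28 for the smooth muscle actin Actg2.

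In the switch that turns myosin on and off, Mylk and the phosphatase subunits were below 0, Rock1 and Rock2 were at 0, and 1 inhibitor stood apart. Mylk, the myosin light chain kinase, was at 2306 CPM in the knockout and 3288 CPM in the WT library (-0.51, -0.53 to -0.49). The phosphatase targeting subunit Ppp1r12a had a log2 ratio of -0.36, and Ppp1r12b, at only 212 and 192 UMIs, had -0.56 (-0.85 to -0.27). Ppp1r14a, which encodes CPI-17, the phosphatase inhibitor typical of smooth muscle, was at 237 and 321 CPM (-0.44). Its paralogue Ppp1r14b (chr19:6975048-6977324), which encodes a related inhibitor found in many tissues, was at 89.8 CPM (86.0 to 93.7) and 22.8 CPM (20.4 to 25.3), a log2 ratio of 1.98 (1.81 to 2.15). That ratio stood at the 99.9th percentile of the 12214 genes. A related gene, Ppp1r14bl, had 5 and 2 UMIs in basal cells. Rock1 and Rock2 had ratios of 0.00 and 0.01 with intervals across 0.

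Among intermediate filament, adhesion and cross-linking genes, 1 of 11 was 1.5-fold lower and 1 higher. Synm (synemin, chr7:67730161-67759742), an intermediate filament protein that links to the dystrophin complex, was at 288 CPM in the knockout and 534 CPM in the WT library (-0.89, -0.94 to -0.85). The 3' end of Synm overlaps that of Ttc23 on the other strand, and Ttc23 was at 16.6 and 25.6 CPM (-0.62). Whether counting used strand is not stated in the labels, so the 2 genes' reads cannot be told apart. Other members, among them Tagln, Vcl, Actn4, Ppp1r12b and Srf, also have a gene of the other strand at or near the 3' end. Flna, Actn1, Actn4, Vcl and Csrp1, which cross-link actin or anchor it to adhesions, had ratios from -0.42 to -0.34. Tln1, Pdlim7 and Pdlim3 were nearer 0, with ratios of -0.19, -0.16 and -0.06. Csrp2 was above 0, at 13.1 and 8.47 CPM (0.63, 0.33 to 0.94), from 313 and 124 UMIs. Without cycling cells its ratio was under 1.5-fold. Des, which encodes desmin, the main intermediate filament of muscle, was almost absent from basal cells, with 39 and 16 UMIs (0.58, -0.29 to 1.52).

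Oxtr, the oxytocin receptor, had 5663 UMIs in knockout and 7282 in WT basal cells. This gave 237 CPM (231 to 244) and 498 CPM (486 to 509), a log2 ratio of -1.07 (-1.12 to -1.02), lower than all but 1.498% of genes. The 2 intervals were far apart. The next steps of the pathway differed much less: Gnaq, the Gq alpha subunit, had a ratio of -0.23 (-0.30 to -0.16), and Itpr1, the calcium release channel, 0.05 (-0.06 to 0.17). Oxt, the hormone's own gene, had 24 and 15 UMIs in basal cells. Srf, which drives contractile genes through CArG boxes, was at 84.3 and 101 CPM (-0.26), and Myocd, its smooth muscle coactivator, had 6 and 1 UMIs in basal cells and no ratio was read from it. Ckb, a creatine kinase that buffers ATP, had a ratio of 0.09.

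A list of further genes of oxytocin signalling, calcium handling and smooth muscle structure was read beside the members. Of its 83 symbols 80 were in the files, 71 passed the UMI minimum, 9 were at least 1.5-fold lower in knockout basal cells and 1 was higher, with a median of -0.14. The largest were Itga1, a collagen-binding integrin subunit, at 25.7 and 69.6 CPM (-1.44), and Dmd (dystrophin), at 39.2 and 70.2 CPM (-0.84). Cav1 (caveolin) was at 334 and 566 CPM (-0.76) and Kcnma1, a calcium-activated potassium channel, at 31.5 and 52.9 CPM (-0.75). The gene above was Plcb4, a phospholipase C, at 5.32 and 3.21 CPM (0.73, 0.24 to 1.24).

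Several other measures differed between the same 2 sets of basal cells. The 10 genes of a dissociation stress list summed to 13490 CPM in the knockout and 19139.7 CPM in the WT library, with a median ratio of -0.36 and 3 of 10 at least 1.5-fold lower. The 14 alveolar markers summed to 1434 and 15276 CPM, and milk protein genes took 0.157% and 1.60% of basal UMIs. The 10 markers of pericytes and vascular smooth muscle, which also express contractile genes, summed to 81.8 and 102 CPM in basal cells. Gucy1a1 gave most of each sum, at 64.8 and 71.4 CPM. Of the 6 markers with enough UMIs, 3 were at least 1.5-fold lower in the knockout library and 0 higher, with a median ratio of -0.52. Abcc9 and Higd1b were at 0 in the knockout library and had only 12 and 3 UMIs in the WT library. The 12 basal markers summed to 5066 and 5212 CPM, with a median ratio of -0.24. Of these, Dst (-0.74) and Lamb3 (-0.67) were at least 1.5-fold lower, while Krt14 (0.13) and Il17b (0.36) were above 0. In both libraries cycling cells were 3.35% and 3.33% of basal cells. The part of stress genes, milk RNA and sequencing depth in the ratios above was not tested.

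The 2 libraries filled different basal clusters, and this bears on every basal value above. Cluster 0 (led by Scn7a and Fhod3) and cluster 1 (led by S100a6 and Ppp1r14a) held 45.2% and 32.0% of WT basal cells. Cluster 2 (led by Ccl2 and Ccl7) and cluster 3 (led by Chil1 and Mgp) held 38.6% and 32.1% of knockout basal cells. Member genes differed in abundance between clusters: they took 7.90% of knockout UMIs in cluster 1, 5.01% in cluster 2 and 3.39% in cluster 3.
Within clusters the median ratio was nearer 0 in the 4 clusters that held most cells. It was -0.11 in cluster 0, where 1 of 39 members was at least 1.5-fold lower and 1 higher, beside 16.8% and 11.6% of all genes measured in that cluster. In cluster 1 the median was 0.01, with 0 of 40 lower and 3 higher, beside 6.02% and 4.7%. The median was -0.07 in cluster 2, where 2 were lower and 2 higher, beside 9.4% and 11.8%, and cluster 3 had -0.22, with 2 lower and 2 higher, beside 10% and 13.2%. In these 4 clusters the share of members at lower levels was below that of all genes. Members carry more UMIs than most genes, so counting error moves their ratios less, and these shares are not read as a trait of the members.
The smaller clusters leaned further down. The median was -0.31 in cluster 6 (led by Lgr5 and Ltbp2), where 5 of 38 were lower and 1 higher, beside 6.62% and 7.02%. Cluster 8, whose leading genes Cenpf and Top2a mark dividing cells, had -0.26, with 3 of 38 lower and 1 higher, beside 6.92% and 7.68%. The widest difference was in cluster 9 (led by Iho1 and Timm22, 195 knockout and 102 WT cells), where the median was -0.56 and 17 of 38 were lower and 2 higher, beside 11.9% and 13.3%. Cluster 11 (led by Carmn and Rn7sk) had -0.44, with 5 of 35 lower and 0 higher, beside 9.18% and 10.2%. Cluster 13, led by the ribosomal RNA genes Rn45s and Rn18s, had -0.43, with 8 of 33 lower and 1 higher, beside 11.7% and 10.5%, from 58 and 66 cells. With each cluster given equal weight, the median over members was -0.18 and 2 members were lower by 1.5-fold.

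Acta2 shows how far the cluster matters. It was at 27843 CPM in the knockout and 25253 CPM in the WT part of cluster 1, a log2 ratio of 0.16 (0.15 to 0.18), and it had -0.05 in cluster 0 and -0.03 in cluster 2. In cluster 3 its ratio was -0.25, and in cluster 9 it was -0.69. Across the 9 clusters it was below 0 in 8. Oxtr, in contrast, was below 0 in 9 of 9 clusters, each with an interval below 0, from -1.37 (-1.61 to -1.12) in cluster 3 to -0.30 (-0.57 to -0.04) in cluster 0. In cluster 1 it was at 447 and 610 CPM (-0.43, -0.53 to -0.33), and in cluster 2 at 248 and 379 CPM (-0.62). It was past 1.5-fold in 5 of the 9. Myh11, Myl9 and Smtn also had intervals below 0 in every cluster. These 4 were among 33 members measured in all 9 clusters, and the share of all 700 such genes with that pattern was 3.43%. By direction alone, 12 of the 33 were below 0 in every cluster, beside 13.7% of all genes. Ppp1r14b was higher in the knockout library in each of the 7 clusters where it could be measured, from 0.96 (0.10 to 1.95) in cluster 9 to 2.18 (1.37 to 3.14) in cluster 3, and Tagln2 was above 0 in 7 of 7.

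**Figure D2:**
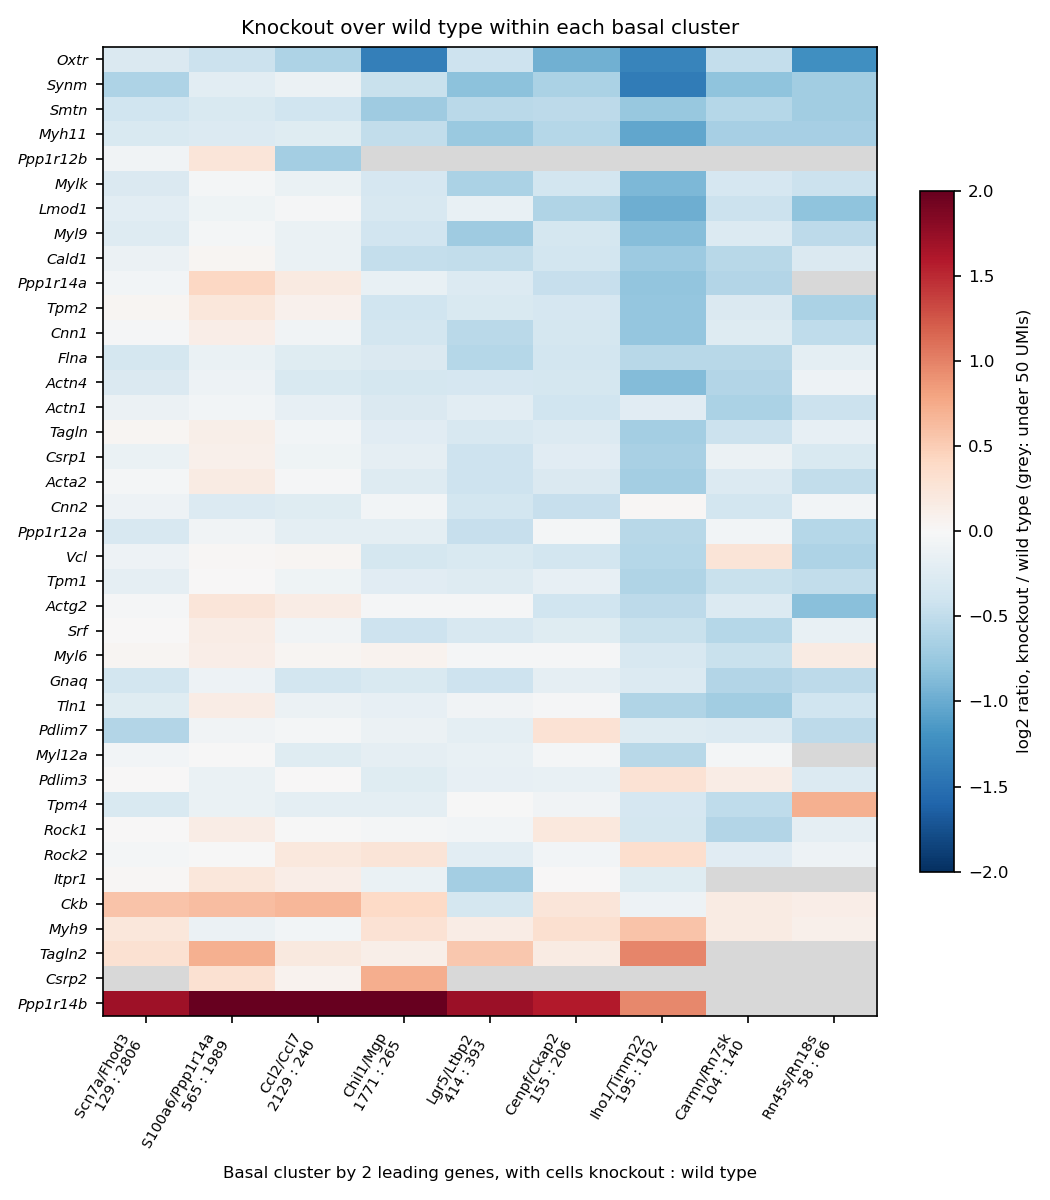
Knockout over WT log2 ratio of 39 members within each of 9 basal clusters, as colour from -2 (blue) to 2 (red), with members in the order of their ratio over all basal cells and grey where a gene had under 50 UMIs. Oxtr at the top is blue in all 9 columns and Ppp1r14b at the bottom red in the 7 where it was measured, while the rows between are pale in the 3 columns at the left.

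Outside basal cells, members ranged from the level of basal keratins, read here as background, to levels above those of basal cells. The luminal secretory class was made of 4 clusters, of which cluster 4 (led by Cidea and Wap) held 62.9% of its WT and 5.07% of its knockout cells, and cluster 5 (led by Fcgbp and Kit) held 20.2% and 80.0%. It also took in cluster 7 (73 knockout and 345 WT cells), led by Igkc, Ighg2c and genes of dividing cells such as Birc5, and cluster 12 (51 and 85 cells), whose leading genes Ccl6, Retnla and Pf4 are known from macrophages. The leading genes of these 2 clusters thus go against the class name, and values without them are given beside the result. In this comparison levels are plain CPM and each library is read by itself. In the WT library 39 of 40 members were at least 1.5-fold higher in basal than in luminal secretory cells, beside 60.9% of all genes, and 1 was lower, beside 12.3%. In the knockout library 35 were higher, beside 31.8%, and 1 lower, beside 23%. The gene that was lower in both libraries was Ppp1r14b. The 12 members at or below the highest of 3 basal keratins in both libraries were Acta2, Actg2, Cnn1, Tagln, Tpm2, Myh11, Myl9, Mylk, Lmod1, Ckb, Synm and Ppp1r14a. They stood in luminal secretory cells at 2.19% to 3.35% of their basal level in the knockout library and at 0.876% to 1.2% in the WT library. The keratins, which luminal secretory cells should lack, stood as follows: Krt5 at 4.05% and 1.36%, Krt14 at 3.66% and 1.40%, and Krt17 at 4.21% and 1.02%. The luminal level of those 12 is not read as expression, and since they were grouped by these values, the grouping is a description. The next members were close by, with Cald1 at 4.37% and 1.17%, Cnn2 at 5.96% and 1.16%, Tpm1 at 8.25% and 2.17%, and Pdlim7 at 8.71% and 2.34%. Without clusters 7 and 12 the median over the 40 members was 12.5% and 3.28%, in place of 13.6% and 3.74%.

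**Figure D3:**
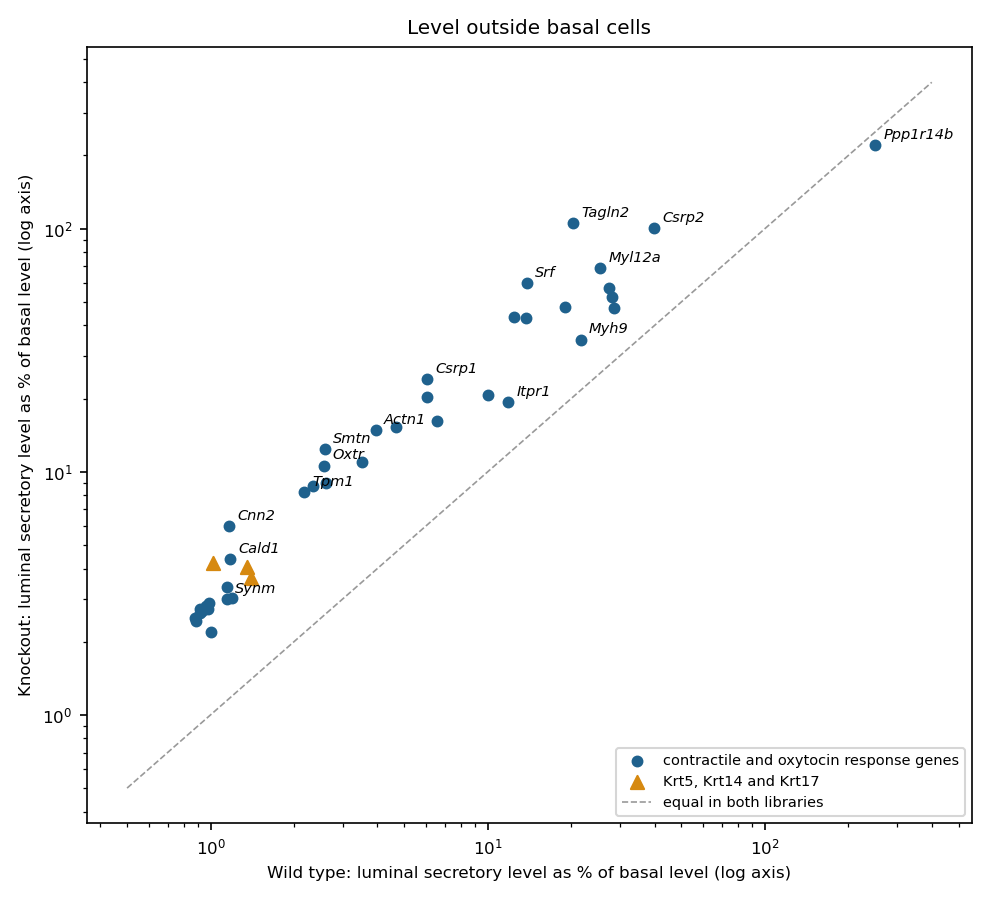
Luminal secretory level as a percentage of basal level for 39 members (blue points) and 3 basal keratins (orange triangles), with the WT library on the x axis and the knockout library on the y axis, both log axes. Acta2 and other smooth muscle genes sit with the keratins at the lower left, the points run on from there without a gap, and Ppp1r14b, at 249.5% and 221%, is at the far upper right.

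Several broadly expressed members were well above that background. Myl12a stood at 68.6% of its basal level in the knockout and 25.5% in the WT library. Within 4 pairs of related members, 1 stood higher there than the other. Tagln2 stood at 106% and 20.3% beside 2.51% and 0.876% for Tagln, and Csrp2 at 100.45% and 39.8% beside 24.0% and 6.06% for Csrp1. Actn4 stood at 52.4% and 28.1% beside 14.8% and 3.95% for Actn1. Ppp1r14b reached 198 and 56.9 CPM in luminal secretory cells, at 221% and 249.5% of basal, beside 2.19% and 1.01% for Ppp1r14a. Oxtr stood at 10.6% and 2.57%, above the 3 keratins, with 330 and 368 luminal UMIs.

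Between libraries, luminal secretory cells showed no shift towards lower levels. Of 40 members measured there, 13 were at least 1.5-fold higher in the knockout library and 0 lower, beside 15.4% and 18% of all 11159 genes, with a median of 0.31. The 12 members at keratin level are among the 40, and their ratios compare background levels: 1 of them, Ckb, was among the 13. Of the other 28, 12 were higher and 0 lower, with a median of 0.51. The 3 basal keratins read as background were also higher in knockout luminal secretory cells in plain CPM, before scaling. Krt5 was at 27.9 and 11.9 CPM, Krt14 at 71.1 and 24.8 CPM, and Krt17 at 23.4 and 5.54 CPM. The part of background in the ratios of these 28 was not tested. Without clusters 7 and 12, which left 704 knockout and 2121 WT cells, 18 of 40 were higher and 0 lower, with a median of 0.51, beside 16.6% and 19.1% of all genes. Since cluster 4 dominated the WT and cluster 5 the knockout cells, these ratios also compare clusters, and the part of this was not tested. Scaling mattered in this class: plain CPM moved every ratio up by 0.87 on the log2 scale. Tagln2 had the largest ratio, 2.02 (1.90 to 2.14), from 141 and 34.6 CPM. Ppp1r14b was higher here too, at 146 and 77.0 CPM (0.92, 0.84 to 1.02), and so was Srf, at 37.1 and 18.9 CPM (0.97). Oxtr had a ratio of 0.10 with an interval across 0. Smtn was above 0, at 0.66 (0.46 to 0.86), opposite to its basal ratio.

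In hormone-sensing cells, with 150 and 124 cells, 27 members were measured. Of these 2 were 1.5-fold higher, Ppp1r14b (1.48, 1.08 to 1.91) and Tagln2 (0.64), beside 8.99% of genes, and 5 were lower, beside 8.6%. The 5 included Mylk (-1.01) and Myh11 (-0.98), which stood there at 2.14% to 2.99% of their basal level in their own library. Krt5, Krt14 and Krt17 stood there at 3.33% to 6.90% in the knockout and 3.14% to 5.26% in the WT library. The levels of Mylk and Myh11 there are thus not read as expression, and their ratios compare background levels. The 5 also held Actn4 (-0.70) and Gnaq (-0.67), which were above the keratins. Actn4 stood there at 21.0% of its basal level in the knockout and 25.3% in the WT library. Gnaq stood at 21.8% and 29.1%, from 43 and 35 UMIs. Ppp1r14b was thus at least 1.5-fold higher in the knockout library in all 3 epithelial classes. Among non-epithelial cells, a cluster named endothelial (29 knockout and 86 WT cells) also held the pericyte gene Rgs5 and had Des at 47.6 and 67.3 CPM.

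**Figure D4:**
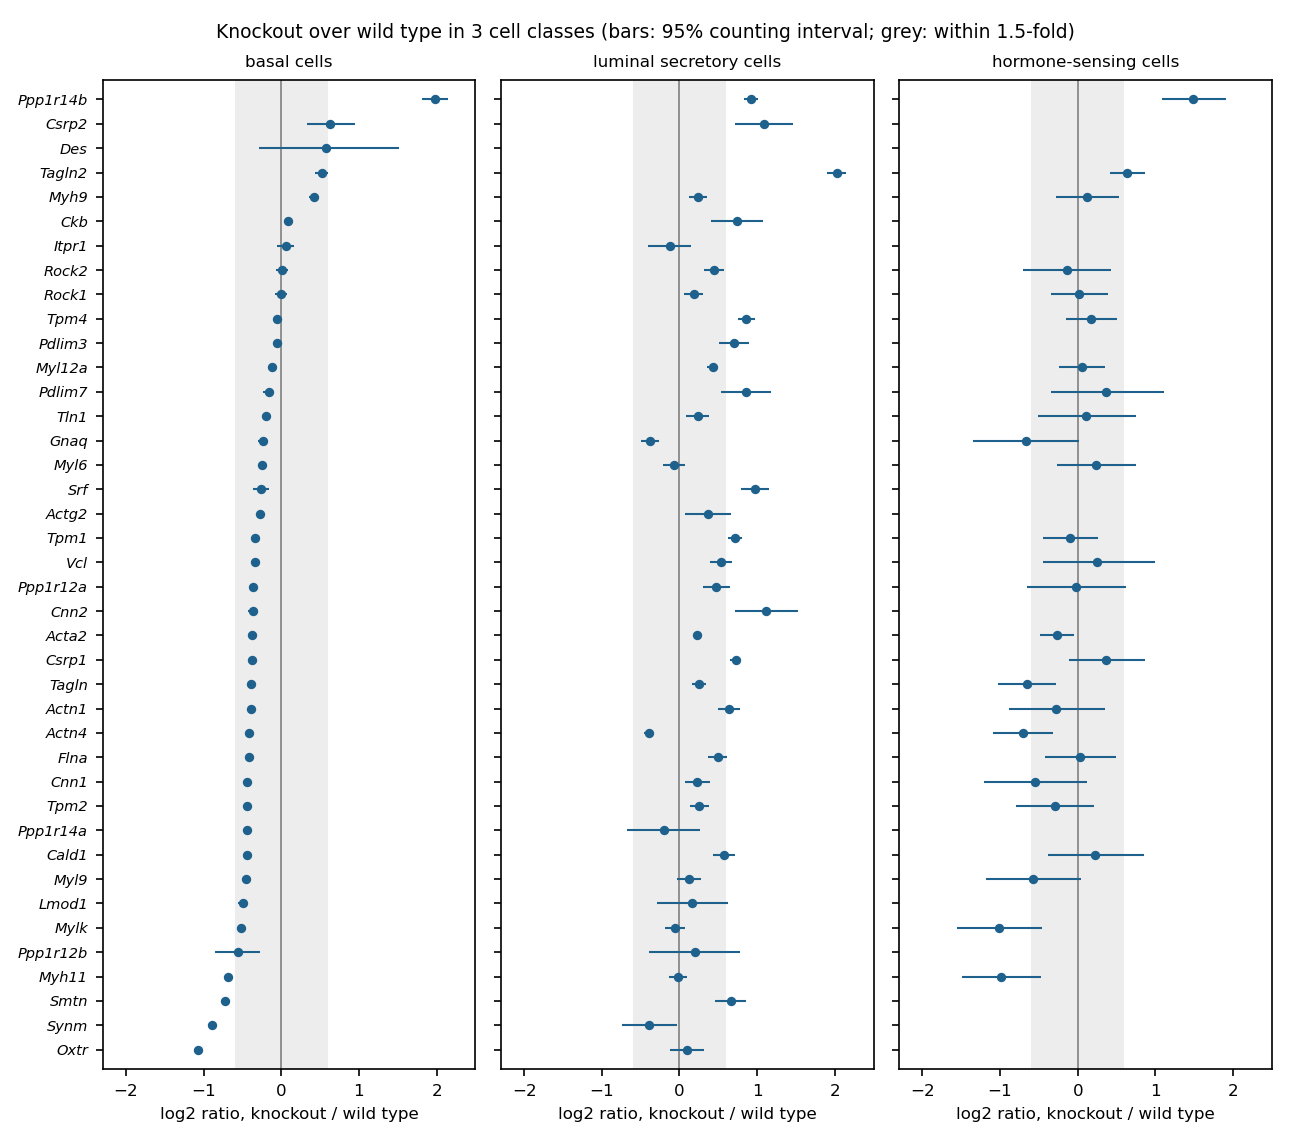
Knockout over WT log2 ratio with its 95% counting interval for 40 members in basal, luminal secretory and hormone-sensing cells, ordered by the basal ratio, with the range within 1.5-fold in grey. Most basal points lie left of 0 and most luminal points right of it, and Ppp1r14b lies right of the grey band in all 3 panels.

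How cells shared the receptor was read in cells thinned to 2000 UMIs. The 212 knockout and 3044 WT basal cells that were shallower are not among them. At least 1 Oxtr UMI was found in 33.6% of knockout basal cells (32.3% to 34.9%) and 59.8% of WT basal cells (58.1% to 61.5%), with exact binomial intervals. Without thinning, the shares were 52.7% and 60.3%. In luminal secretory cells thinned to 2000 UMIs they were 5.76% and 1.96%, well below the basal shares. Cells with 3 or more Oxtr UMIs were 2.35% of knockout and 11.3% of WT basal cells, and the highest cell had 6 and 7. Synm was found in 38.6% and 60.5% and Smtn in 41.5% and 59.4% of basal cells. Ppp1r14b went the other way, at 15.9% (14.9% to 16.9%) and 4.62% (3.91% to 5.41%) in basal and 32.2% and 11.3% in luminal secretory cells.

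In the same thinned cells, the abundant genes were found in nearly every basal cell and varied in amount. Acta2 was found in 99.92% of knockout basal cells, with a median of 27 UMIs (quartiles 18 and 40), and in 99.97% of WT basal cells, with a median of 40 (quartiles 28 and 53). Its variance over mean, which is 1 for counting noise alone, was 9.67 and 7.75. Tagln had 4.26 and 4.06, and Myh11 2.61 and 3.05. The median over the 38 and 37 members with a mean of at least 0.1 UMI was 1.17 and 1.19, beside 1.05 and 1.04 for all such genes, whose 90th percentile was 1.24 and 1.21. In each library 17 members lay above that percentile, among them Acta2, Tagln, Myh11, Mylk, Synm, Oxtr and Ckb. Variance over mean also grows with a gene's abundance, and many members are abundant.

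Basal cells with an Oxtr UMI had slightly more of the contractile genes. The 1782 knockout cells with an Oxtr UMI were set against 3526 without one, and 1892 WT cells against 1271. Of 39 other members, 24 had an interval above 0 in the knockout library, beside 6.92% of all genes, and 20 in the WT library, beside 4.01%. 0 had one below 0, beside 5.08% and 4.19%. The median ratio was 0.20 and 0.12 on the log2 scale, beside 0.01 for all genes in each library. Ppp1r14a had 0.49 and 0.30, Actg2 0.38 and 0.25, Synm 0.40 and 0.23, and Acta2 0.28 and 0.14, while Ppp1r14b had -0.02 and -0.09 with intervals across 0. Across cells, Pearson's r between Oxtr and the sum of the other members was 0.23 in 5308 knockout and 0.17 in 3163 WT cells. Cells of a library share its preparation, and these weak correlations of sparse counts are a description.
Within clusters with enough cells of both kinds, the members' median ranged from -0.00 to 0.10 over 5 clusters of the knockout library and from -0.07 to 0.11 over 5 of the WT library. It was lowest in cluster 1 for the knockout library and in cluster 2 for the WT library, and it was 0.11 in WT clusters 6 and 8. Acta2 ranged from -0.16 (-0.26 to -0.07) in cluster 0 to 0.09 in cluster 2 of the knockout library, and from -0.01 to 0.11 in the WT library. By the lower of the 2 libraries' ratios, the 5 genes most like Oxtr among 5869 were Dcaf4, Selenon, Hspb6, Atp2b4 and Fhip2b, none of them a member. Hspb6 had 0.79 (0.374 to 1.196) and 0.62 (0.23 to 1.02), and Fhip2b's WT interval crossed 0.

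**Figure D5:**
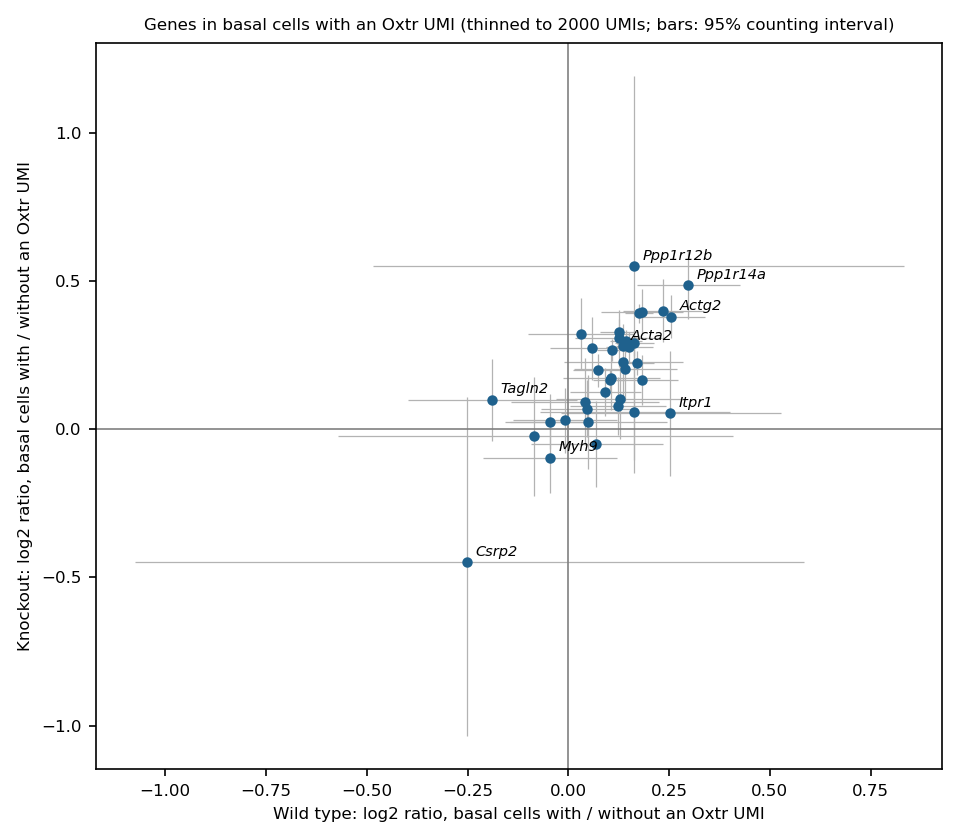
Log2 ratio of 38 other members between basal cells with and without an Oxtr UMI, after thinning to 2000 UMIs, in the WT library (x axis) and the knockout library (y axis), with 95% counting intervals as bars. Most points lie to the upper right of 0, Acta2 at 0.14 and 0.28, and Csrp2 at the lower left has wide intervals.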

How the data were processed

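The deposited count matrices hold UMI counts per gene and cell, not normalized, as the authors' files give them; the extract protocols in the labels name the 10x Chromium 3' kit, and the submitters' processing notes list GRCm38 (mm10) and Seurat 4.0.4, with no role given. Aligner, counter and strand setting: not given in the sources used here. Features without a symbol (1.74% of knockout and 1.36% of WT UMIs) were left out.

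Cells with at least 500 genes, 1000 UMIs and at most 20% mitochondrial UMIs were kept. Scrublet doublets were left out at each library's own threshold, which marked 1 knockout and 126 WT barcodes. Cells of both libraries were clustered together (scanpy 1.11.5, 2000 variable genes without the 42 members, 30 principal components, Leiden resolution 1), and clusters were named from at least 3 markers. UMIs were summed per library and class. Genes reaching 50 UMIs in the 2 libraries together were compared, scaled to a median log2 ratio of 0, with exact conditional intervals for ratios, exact Poisson intervals for levels and Clopper-Pearson intervals for shares. No p-value was computed, since each genotype has 1 library. Scripts were tested on simulated data. Thinning drew UMIs without replacement. For single values, all 42 members could be named; of the further pathway genes, up to 4 per direction among those past 1.5-fold, and the 5 genes most like Oxtr. Of 1 member, single values are not reported here and its points are left out of the figures; it is counted in every total. The members and lists were chosen with earlier results of these data known. Intervals cover counting error only.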

Additional observations from a re-analysis of the deposited data

Results flagged for a closer look

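Smtn (smoothelin) had ratios of opposite sign in 2 cell classes: its knockout over WT log2 ratio was -0.73 in basal cells and 0.66 in luminal secretory cells. Each class gives 1 value per library, and the difference between the classes was not tested. In luminal secretory cells Smtn stood at 12.4% of its basal level in the knockout and 2.58% in the WT library, beside 3.66% to 4.21% and 1.02% to 1.40% for 3 basal keratins. In plain CPM Smtn was at 36.6 and 12.6 there. The keratins were higher in the knockout library too: Krt5 at 27.9 and 11.9, Krt14 at 71.1 and 24.8, and Krt17 at 23.4 and 5.54 CPM. The part of background in the luminal ratio of Smtn was not tested.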

How the results depend on the processing

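No paired analysis was possible because each genotype has 1 library. None of the 6 members called past 1.5-fold in basal cells changed sign under any alternative in which it was measured, single clusters included. Csrp2 was measured in only 3 clusters, each with an interval across 0, and Ppp1r14b in 7. Of the other members some changed sign, such as Acta2 (-0.69 to 0.16) and Tagln (-0.68 to 0.12). Some did not, such as Myl9 (-0.85 to -0.04). Over all basal cells the members' median was -0.34, and it was -0.40 when cells were thinned to 2000 UMIs before summing. The count of members 1.5-fold higher was 1 in place of 2 with the basal class set per cell from keratin UMIs, and 1 without cycling cells. With equal weight per basal cluster, an alternative chosen after seeing the data, the median was -0.18 and 2 members were lower in place of 4. Leaving out knockout barcodes above the WT doublet threshold, also added then, left 41 of 41 members' ratios the same within counting error. Single ratios moved beyond it for 29 of 41 members with equal weight per cluster, 17 of 40 with thinning, 15 of 41 with the stricter cell filter, 13 of 41 with the keratin class, 10 of 41 with CPM outside milk protein genes, 9 of 41 with equal weight per cell, 5 of 41 with free RNA subtracted and 0 with plain CPM. Within clusters 0, 1, 2, 3, 8, 9, 11 and 13 the median was -0.11, 0.0121, -0.068, -0.22, -0.26, -0.56, -0.44 and -0.43. The count lower was 1, 0, 2 and 2 in clusters 0, 1, 2 and 3, 17 in cluster 9 and 8 in cluster 13, and the count higher was 1 in clusters 0, 6, 8 and 13 and 0 in cluster 11. The cause of these moves was not tested. The members' median luminal level as a percentage of basal was 13.6% in the knockout and 3.74% in the WT library, 14.7% and 4.09% after thinning, 22.1% and 9.90% with classes set per cell from keratin UMIs, and 12.5% and 3.28% without clusters 7 and 12, which was also chosen after seeing the data. The share of basal cells with an Oxtr UMI was 20.1% and 35.9% after thinning to 1000 UMIs, and 52.7% in the knockout library without thinning. Depth limits Myocd, which had too few UMIs in basal cells for a ratio, and Des, whose interval spans 0.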
